A study of Mus musculus with 18 samples.

Results

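Polyamine metabolism was examined in mouse kidneys after ischemia and reperfusion through 10 genes, *Odc1*, *Amd1*, *Srm*, *Sms*, *Sat1*, *Smox*, *Paox*, *Oaz1*, *Oaz2* and *Azin1*, out of 45706 genes counted. They were taken by name, matched to the Ensembl identifiers of the counts, and all 10 were found. The list was chosen from earlier results of these same kidneys, in which the *Myc* and *Cxcl12* effects on these genes were already known, and no threshold was applied. The fold changes and adjusted p-values below therefore describe these kidneys and are no independent support for a pattern. Every one of the 10 genes had at least 13 reads in each of the 18 kidneys and passed the filter on low counts.

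Whole kidneys were sequenced from adult male C57BL/6 mice of 4 groups, 5 *Myc* KO, 5 *Myc* control, 5 *Cxcl12* KO and 3 *Cxcl12* control kidneys. All mice were homozygous for a floxed allele, *Cxcl12* F/F in one cohort and *Myc* F/F in the other, and all carried the Pax8rtTA transgene, while only KO mice also carried TetOCre. KO and control mice alike received doxycycline followed by a wash-out, then bilateral ischemia of 22.5 min and reperfusion of 12 h, so every kidney was injured and no uninjured kidney enters a comparison. The Pax8 promoter directs excision to tubule cells, so vessels, interstitial cells and infiltrating leukocytes in the same tissue were not its target.

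The reads counted on genes numbered 12918220 to 29749500 per kidney. In 6 kidneys under 5% of reads were unmapped (*Cxcl12* KO 1 and 2, *Myc* KO 3 and 5, *Myc* control 1 and 3), and no *Cxcl12* control kidney was among them. No 2 kidneys of a group, in 33 pairs, were alike within sampling noise, so no library occurred 2 times within a group. This check cannot tell whether 2 kidneys came from 1 mouse, and each kidney was treated as 1 sample. The targeted genes were lower in their own cohort: *Myc* had 31.0 ± 3.9 normalized CPM (read counts scaled to a common library size; mean ± SD, n = 5) in *Myc* KO and 94.9 ± 14.5 CPM (n = 5) in *Myc* control kidneys, and *Cxcl12* had 32.3 ± 6.1 CPM (n = 5) in *Cxcl12* KO and 53.5 ± 7.9 CPM (n = 3) in *Cxcl12* control kidneys. Their log2 fold changes were -1.61 (edgeR adjusted p = 8.8e-05) and -0.73 (edgeR adjusted p = 0.094, and 0.0017 from DESeq2). All 10 proximal tubule markers were detected in every group, with summed levels between 4789 and 7907 CPM per kidney.

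Polyamines are small, positively charged molecules that bind nucleic acids and are needed for growth and translation. Ornithine decarboxylase (Odc1) makes putrescine from ornithine. Adenosylmethionine decarboxylase (Amd1) supplies the aminopropyl donor that spermidine synthase (Srm) adds to putrescine and spermine synthase (Sms) adds to spermidine. In the opposite direction, the acetyltransferase Sat1 tags spermidine and spermine for export or for oxidation by Paox, and Smox oxidizes spermine directly, with release of hydrogen peroxide. Antizymes (Oaz1, Oaz2) carry ornithine decarboxylase to the proteasome, and the antizyme inhibitor Azin1 releases it. *Odc1* and *Srm* are textbook targets of the transcription factor Myc, and *Sat1* is known to be induced by ischemia and reperfusion of the kidney. These are statements of background, and much of the control of *Odc1*, *Amd1* and the antizymes acts on translation or protein decay, which read counts do not show.

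The 250 bases before and 50 bases after the annotated start are given for the synthesis genes whose windows hold a site of the type that Myc and its partner Max are known to bind (RefSeq, GRCm38.p6). RefSeq windows were matched for 8 of the 10 genes, and *Srm* and *Azin1* had none. The E-box CACGTG, which reads the same on both strands, and the variant CACGCG, searched on both strands, are in capitals. The *Odc1* window lies at chr12:17544623-17544922 on the plus strand, the upstream *Sms* window at chrX:157492238-157492537 and the downstream *Sms* window at chrX:157491319-157491618, both on the minus strand.

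Odc1: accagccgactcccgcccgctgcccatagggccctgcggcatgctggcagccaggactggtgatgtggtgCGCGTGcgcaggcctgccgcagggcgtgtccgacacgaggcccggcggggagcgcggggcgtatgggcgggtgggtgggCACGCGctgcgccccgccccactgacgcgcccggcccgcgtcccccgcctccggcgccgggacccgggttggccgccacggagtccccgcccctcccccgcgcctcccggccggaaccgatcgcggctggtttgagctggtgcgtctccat
Sms, upstream start: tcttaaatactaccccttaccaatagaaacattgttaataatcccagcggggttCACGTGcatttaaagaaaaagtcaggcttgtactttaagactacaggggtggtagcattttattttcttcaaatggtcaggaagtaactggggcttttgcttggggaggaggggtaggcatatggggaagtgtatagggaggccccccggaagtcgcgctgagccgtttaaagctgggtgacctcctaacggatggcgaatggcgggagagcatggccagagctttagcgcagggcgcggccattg
Sms, downstream start: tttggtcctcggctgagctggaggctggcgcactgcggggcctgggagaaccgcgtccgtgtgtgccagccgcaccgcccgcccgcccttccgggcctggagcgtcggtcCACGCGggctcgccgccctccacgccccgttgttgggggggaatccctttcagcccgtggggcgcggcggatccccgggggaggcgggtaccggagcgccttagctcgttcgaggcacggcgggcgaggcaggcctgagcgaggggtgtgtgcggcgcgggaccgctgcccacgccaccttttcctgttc

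Of the 10 windows of the 8 genes, 1 held CACGTG, against 7.15% of all 32851 windows of this length, and 3 held CACGCG, against 9.27%. The CACGTG of *Sms* began 196 bases before the upstream start, and *Odc1* held CACGCG in both orientations. The window of *Oaz1* was the other with CACGCG, and those of *Amd1*, *Sat1*, *Smox*, *Paox* and *Oaz2* held neither. A match in these letters is a description of the window and does not show that a factor was bound.

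Between genes, levels can be compared only per length, and they are given here as CPM per kilobase of annotated exon over all 18 kidneys. *Sat1* stood highest with 143 ± 36.1 (mean ± SD, n = 18), followed by *Odc1* with 62.3 ± 11.3 and *Azin1* with 38.1 ± 4.3. *Srm* followed with 29.8 ± 7.6, and *Smox*, *Oaz2* and *Oaz1* lay close together at 13.6 ± 2.1, 12.3 ± 1.0 and 11.6 ± 1.7. *Amd1* (3.2 ± 0.57), *Sms* (2.1 ± 0.30) and *Paox* (0.33 ± 0.095) were lowest. Genes next to each other in this order overlapped in their ranges, except that the lowest *Srm* kidney lay above the highest *Smox* kidney, the lowest *Oaz1* kidney above the highest *Amd1* kidney, and the lowest *Sms* kidney above the highest *Paox* kidney. By CPM per kilobase the first synthesis step thus stood far above the last, and *Paox* rested on 13 to 45 reads per kidney. Only uniquely mapped reads were counted, and the share of 50-base stretches that recur in other transcripts was unequal. It was 78.1% for *Amd1*, 28.5% for *Paox*, 24.3% for *Odc1*, 21.0% for *Oaz1* and 17.5% for *Sms*, against at most 7.4% for the others. The order was not corrected for this, so the place of genes with much shared sequence is uncertain.

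**Figure D1:**
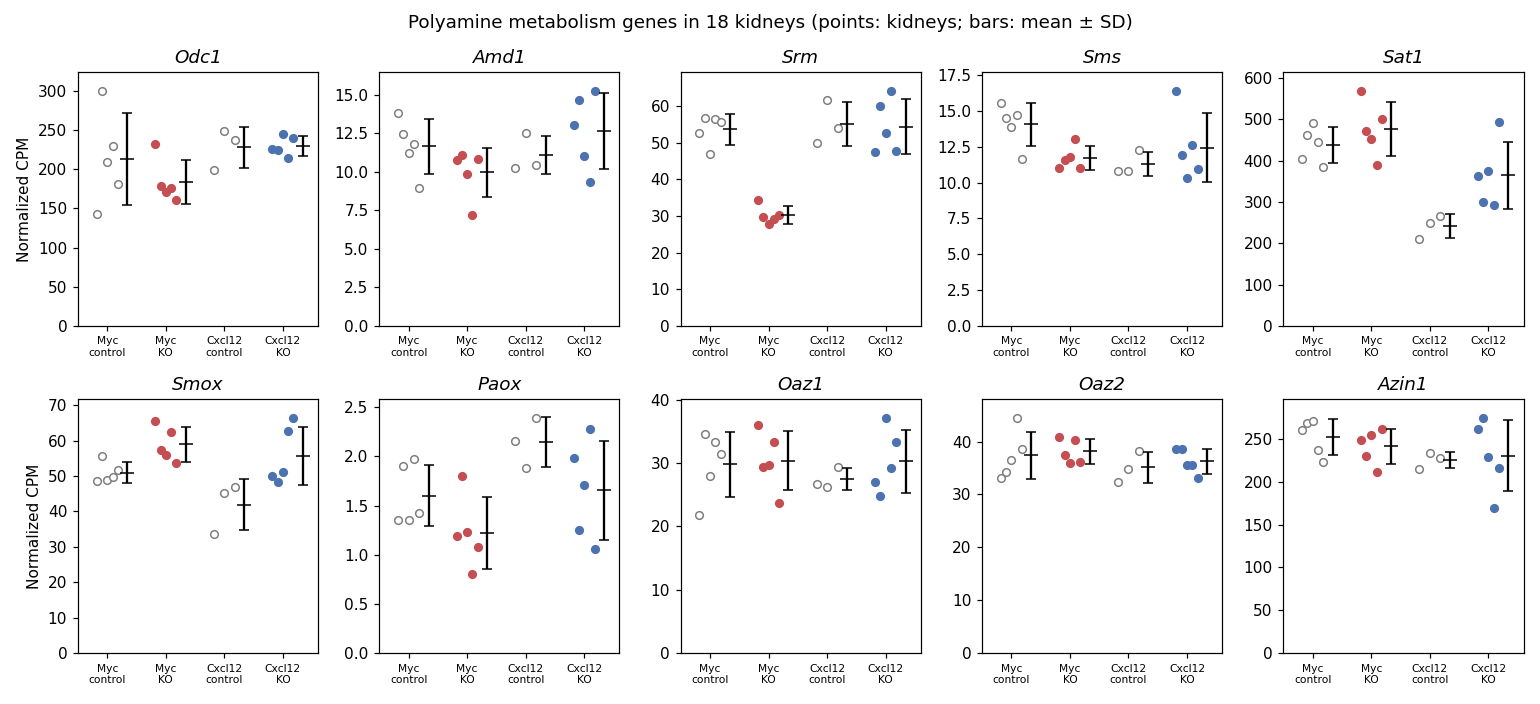
Normalized CPM of the 10 genes in each of 18 kidneys, on linear axes that start at 0 and differ between genes. Points are kidneys, open for control and filled for KO, and bars give the group mean ± SD. The 5 *Myc* KO kidneys sit between 27.9 and 34.3 CPM for *Srm*, below every other kidney.

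The *Myc* comparison asks how the kidney's transcripts differ 12 h after injury when tubule cells lack *Myc*. *Srm*, spermidine synthase, was the member called lower at the adjusted threshold, and none was called higher. *Srm* (ENSMUSG00000006442, plus strand of chromosome 4, 148591503 to 148594993 on GRCm38) had 34.3, 29.6, 27.9, 29.3 and 30.2 CPM in *Myc* KO kidneys 1 to 5. The *Myc* control kidneys 1 to 5 had 52.7, 56.7, 46.9, 56.5 and 55.6 CPM of *Srm*. Not one KO kidney reached the lowest control. The group means were 30.3 ± 2.4 CPM (SD, n = 5) and 53.7 ± 4.1 CPM (SD, n = 5), a ratio of 0.565. The log2 fold change was -0.82 (standard error 0.081, 95% interval -1.0 to -0.65, edgeR adjusted p = 0.0010). In bulk kidney, fewer cells of a type and less RNA per cell cannot be told apart.

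Of the 10 genes, 1 passed an adjusted p of 0.05 in the *Myc* cohort, against 1.65% of the 14936 genes tested (1.29% called lower). *Srm* was also the 1 gene of the 10 with all KO kidneys below all controls, against 3.92% of genes. None had all KO kidneys above all controls, against 2.05%. The change in *Srm* lay at percentile 0.44 of all log2 fold changes. Under 22 alternative settings, which include leaving out each kidney, its log2 fold change ranged from -0.87 to -0.79 and its adjusted p never exceeded 0.018. Within the kidneys of under 5% unmapped reads, *Srm* had 27.9 and 30.2 CPM in KO and 52.7 and 46.9 CPM in control kidneys, so the order was the same there and among the others. *Srm* shares 2.0% of its 50-base stretches with another annotated transcript, so nearly all of it can be counted uniquely, and no other gene's exon overlaps it.

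The 3 other synthesis genes were lower on average in *Myc* KO kidneys without passing the test. *Sms* (ENSMUSG00000071708, minus strand of chromosome X, 157443855 to 157492287) ran from 11.0 to 13.0 CPM in *Myc* KO kidneys, with a median of 11.6. In *Myc* control kidneys it ran from 11.6 to 15.6 CPM with a median of 14.5, and *Myc* control 5 fell within the KO range. The estimate for *Sms* was -0.27 on the log2 scale, with a standard error of 0.10 and an edgeR adjusted p of 0.16. *Amd1* (ENSMUSG00000075232, minus strand of chromosome 10, 40287458 to 40302186) had 9.9 ± 1.6 CPM in *Myc* KO and 11.6 ± 1.8 CPM in *Myc* control kidneys (SD, n = 5 each), an effect of -0.23 ± 0.14 on the log2 scale (estimate ± standard error, edgeR adjusted p = 0.38). The groups overlapped. Since 78.1% of its 50-base stretches recur in other transcripts, mostly those of *Amd2*, and reads that map to several places were not counted, its level is uncertain. *Odc1* (ENSMUSG00000011179, plus strand of chromosome 12, 17544794 to 17551505), the entry step, differed more within the groups than between them. The *Myc* control kidneys 1 to 5 had 143, 300, 210, 230 and 182 CPM of *Odc1*, a 2.1-fold range. The *Myc* KO kidneys 1 to 5 had 232, 178, 171, 176 and 161 CPM, and KO 1 stood above the rest of its group. The log2 fold change of *Odc1* was -0.21 (standard error 0.17, 95% interval -0.58 to 0.16, edgeR adjusted p = 0.49), so a fall of a size like that of *Srm* lay outside this interval. Without *Myc* control 2, its highest kidney, the estimate was -0.055 (edgeR adjusted p = 0.88).

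Among the genes of breakdown and of ornithine decarboxylase control, none passed in the *Myc* cohort. *Smox* (ENSMUSG00000027333, plus strand of chromosome 2, 131491496 to 131525922) had 53.6 to 65.7 CPM in *Myc* KO and 48.5 to 55.6 CPM in *Myc* control kidneys, so the groups overlapped in part. The estimate was 0.21 ± 0.075 on the log2 scale (standard error, edgeR adjusted p = 0.14). *Sat1* (ENSMUSG00000025283, minus strand of chromosome X, 155213132 to 155216449) had 477 ± 66.3 and 437 ± 43.4 CPM (SD, n = 5 each), a log2 fold change of 0.13 (edgeR adjusted p = 0.52). *Paox* (ENSMUSG00000025464, plus strand of chromosome 7, 140115799 to 140137224), at 1.2 ± 0.36 and 1.6 ± 0.31 CPM, had a log2 fold change of -0.37 with a standard error of 0.24. *Oaz1* (ENSMUSG00000035242, plus strand of chromosome 10, 80826656 to 80829290), *Oaz2* (ENSMUSG00000040652, plus strand of chromosome 9, 65668001 to 65690300) and *Azin1* (ENSMUSG00000037458, minus strand of chromosome 15, 38487427 to 38519266) had log2 fold changes of 0.028, 0.031 and -0.061. The direction of *Oaz1* and *Oaz2* turned under some settings. Their 95% intervals lay within -0.27 and 0.33. Over the 10 genes the median log2 fold change was -0.14, against -0.0008 over all genes tested. The 4 synthesis genes had a median of -0.25 and were all on the negative side.

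Markers of other cells were read in the same kidneys, and none passed the test. All 7 neutrophil markers tested had positive log2 fold changes in the *Myc* cohort, from 0.61 to 0.91, and the list summed to 154 to 302 CPM in KO and 51.3 to 263 CPM in control kidneys. All 7 podocyte and endothelial markers were likewise on the positive side, with a median of 0.34. The 8 macrophage markers had 5 negative log2 fold changes and a median of -0.13. Of the 8 tubular injury markers 5 were positive, whereas *Havcr1*, the kidney injury molecule, had a log2 fold change of -1.32 (edgeR adjusted p = 0.12). No marker of these 4 lists was at 0 throughout a group, and their part in the values of the 10 genes was not tested.

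**Figure D2:**
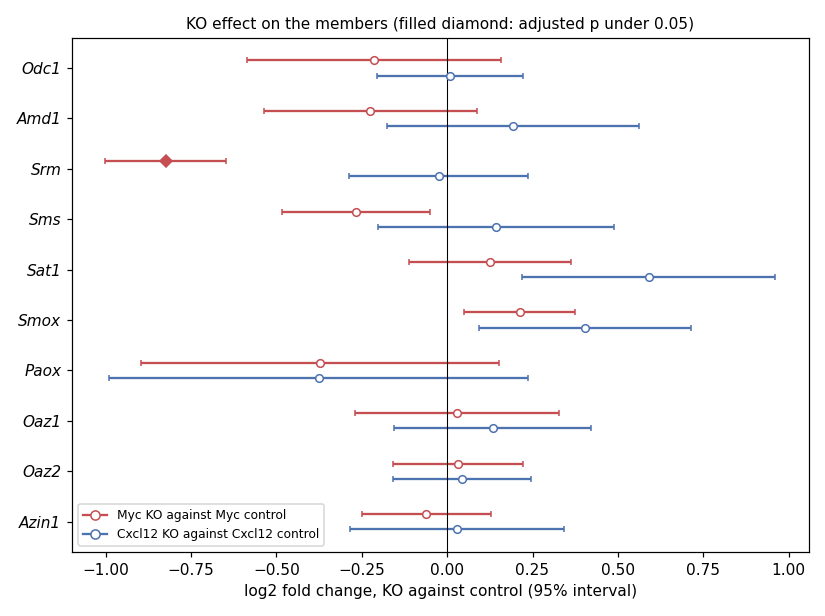
Log2 fold change of each gene in KO against control kidneys, with its 95% interval, for the *Myc* (red) and *Cxcl12* (blue) cohorts. A filled diamond marks an edgeR adjusted p under 0.05. *Srm* in the *Myc* cohort is the 1 filled point, at -0.82.

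The *Cxcl12* comparison puts the same question to kidneys whose tubule cells lack the chemokine Cxcl12. None of the 10 genes passed, in a cohort where 0 of 15154 genes (0%) passed edgeR's test, 1976 had an unadjusted p under 0.05 and DESeq2 called 355. *Sat1* and *Smox*, both on the breakdown side, had the largest positive log2 fold changes. *Sat1* had 362, 300, 375, 293 and 493 CPM in *Cxcl12* KO kidneys 1 to 5, whereas *Cxcl12* control kidneys 1 to 3 had 210, 250 and 265 CPM. Every KO kidney lay above every control kidney. The log2 fold change of *Sat1* was 0.59 (standard error 0.17, 95% interval 0.22 to 0.96), with an adjusted p of 0.19 from edgeR and 0.028 from DESeq2. *Smox* had 49.9, 48.3, 51.1, 62.7 and 66.4 CPM in the 5 *Cxcl12* KO kidneys and 33.7, 45.2 and 46.9 CPM in the 3 control kidneys. Again no KO kidney reached down to a control. For *Smox* the log2 fold change was 0.40 (standard error 0.14, 95% interval 0.094 to 0.71, edgeR adjusted p = 0.28, DESeq2 adjusted p = 0.16). These 2 of 10 genes had all KO kidneys above all controls, against 4.96% of the genes tested, and 0 had all below, against 4.72%. Among the kidneys with at least 5% unmapped reads the log2 fold changes were 0.67 for *Sat1* and 0.51 for *Smox*, and neither passed.

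Markers of other cells differed in level in the same kidneys, and none passed the test. The 8 neutrophil markers summed to 32.0 to 149 CPM in *Cxcl12* KO and 20.6 to 28.9 CPM in *Cxcl12* control kidneys, without overlap. All 7 that could be tested had positive log2 fold changes, from 1.32 to 2.21 (*Mmp8*), 0 passed, and no marker was at 0 throughout a group. The 8 tubular injury markers summed to 14271 to 22354 CPM in KO and 11503 to 13031 CPM in control kidneys, with 7 of 8 log2 fold changes positive, the largest 0.84 for *Lcn2*, and 0 passed. The 8 macrophage markers had mixed signs, with 6 of 8 log2 fold changes negative (median -0.096, lowest -1.20 for *Cx3cr1*) and 0 passed. Their sum was 147 to 259 CPM in KO and 127 to 147 CPM in control kidneys. Within this sum *Cd14* had 60.0 to 158 CPM in KO and 38.5 to 40.7 CPM in control kidneys. The log2 fold change of *Cd14* was the highest of the list (1.38, edgeR adjusted p = 0.079). The 6 erythroid markers, 5 of them with positive log2 fold changes, summed to 37.2 to 164 CPM and 15.1 to 67.5 CPM, and all 7 podocyte and endothelial markers had positive log2 fold changes with a median of 0.14. In *Cxcl12* KO kidneys 1 to 5 the neutrophil markers summed to 43.7, 32.0, 149, 143 and 59.7 CPM. The part of these markers in the *Sat1* and *Smox* values was not tested.

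**Figure D3:**
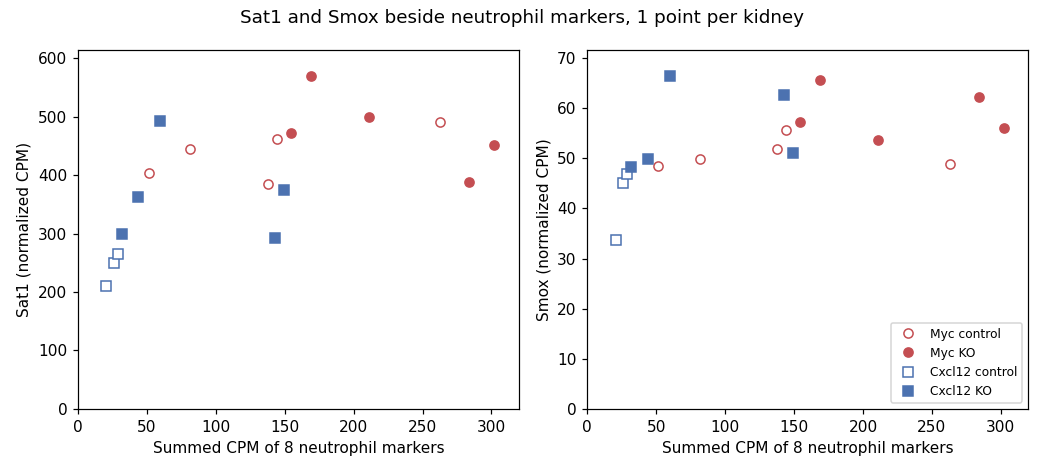
*Sat1* (left) and *Smox* (right) in normalized CPM against the summed CPM of 8 neutrophil markers, 1 point per kidney, with circles for the *Myc* and squares for the *Cxcl12* cohort and open symbols for controls. The 3 *Cxcl12* control kidneys hold the lowest marker sums, 20.6 to 28.9 CPM, and the lowest *Sat1*, 210 to 265 CPM.

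The 2 control groups, which differ in the floxed gene and by cohort, also stood apart for *Sat1* and *Smox*. *Sat1* had 384 to 492 CPM in *Myc* control and 210 to 265 CPM in *Cxcl12* control kidneys. *Smox* had 48.5 to 55.6 CPM and 33.7 to 46.9 CPM in these groups. The ranges of the other members overlapped between the control groups. The share of all genes that separate the control groups was not counted, so the separation cannot be called particular to *Sat1* and *Smox*. The neutrophil marker sums were 51.3 to 263 CPM and 20.6 to 28.9 CPM in these groups. Cohort and floxed allele cannot be told apart here, and no test was made between them.

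None of the 4 synthesis genes passed the test in the *Cxcl12* cohort. *Srm* had 47.4, 60.0, 52.6, 64.3 and 47.8 CPM in *Cxcl12* KO and 49.9, 61.7 and 54.0 CPM in *Cxcl12* control kidneys, which overlapped fully. For *Srm* the log2 fold change was -0.024 (95% interval -0.29 to 0.24, edgeR adjusted p = 0.95). *Odc1* (0.0077), *Amd1* (0.19) and *Sms* (0.14) had adjusted p-values of at least 0.65 by edgeR. *Oaz1*, *Oaz2* and *Azin1* had log2 fold changes of 0.13, 0.043 and 0.030, and *Paox* -0.38 with a standard error of 0.28. *Azin1* ran from 170 to 275 CPM in *Cxcl12* KO and from 215 to 233 CPM in *Cxcl12* control kidneys, and its highest kidneys were *Cxcl12* KO 1 and 2 (262 and 275 CPM), those with under 5% unmapped reads. *Oaz1* spanned 24.7 to 37.1 CPM in *Cxcl12* KO and 26.2 to 29.4 CPM in *Cxcl12* control kidneys, and *Oaz2* 33.1 to 38.6 CPM and 32.4 to 38.3 CPM. The antizyme and antizyme inhibitor transcripts thus overlapped between the groups in both cohorts. The directions of *Srm*, *Odc1*, *Sms*, *Oaz2* and *Azin1* in this cohort turned under 1 or more settings. The median of the 10 genes was 0.088, against 0.0008 over all genes tested.

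The 2 cohorts share no samples, and the difference between their KO effects was fitted over all 18 kidneys. For *Srm* the *Myc* effect was the lower by 0.81 on the log2 scale (difference -0.81, standard error 0.14, 95% interval -1.11 to -0.51, edgeR adjusted p = 0.038). It was the 1 gene of 10 to pass, against 0.0692% of 15903 genes. That call was lost in 17 of 29 alternative fits, with adjusted p-values up to 0.18 and differences from -0.90 to -0.73. Leaving out any of 12 kidneys lost it, namely *Cxcl12* control 1 (adjusted p = 0.18), 2 (0.054) or 3 (0.13), *Cxcl12* KO 2 (0.076), 3 (0.053) or 4 (0.080), *Myc* control 2 (0.091), 4 (0.068) or 5 (0.055), and *Myc* KO 2 (0.086), 3 (0.071) or 4 (0.091), all from edgeR. For *Sat1* the difference was -0.47 (edgeR adjusted p = 0.37), for *Sms* -0.41 (0.37), for *Amd1* -0.42 (0.51) and for *Smox* -0.20 (0.69), so these effects were not shown to differ between the cohorts.

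The pathway around the 10 genes was followed through 43 further genes in 5 lists, of which the *Myc* fit tested 34 and the *Cxcl12* fit 32. In the *Myc* cohort 2 of 34 passed, both lower, against 1.65% of all genes tested (1.29% called lower), and 0 passed in the *Cxcl12* cohort by edgeR. Both belong to the methionine cycle and the salvage of methylthioadenosine, the by-product that Srm and Sms release with each aminopropyl transfer. *Mtap*, the phosphorylase that takes up methylthioadenosine, had 39.1, 39.5, 46.2, 38.3 and 43.8 CPM in *Myc* KO kidneys and 53.7, 58.6, 52.8, 62.0 and 52.6 CPM in *Myc* control kidneys. The groups did not overlap, with all KO kidneys below all controls as in 3.92% of genes. *Mtap* fell by 0.43 on the log2 scale (standard error 0.080, edgeR adjusted p = 0.025). *Mat2a*, which makes the adenosylmethionine that Amd1 decarboxylates, had 260, 234, 240, 257 and 258 CPM in *Myc* KO and 327, 348, 279, 382 and 319 CPM in *Myc* control kidneys, also apart. Here the effect was -0.40 ± 0.089 on the log2 scale (standard error, edgeR adjusted p = 0.043).

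Both calls were near the threshold. *Mtap* kept its direction throughout and lost the call without *Myc* control 2 (edgeR adjusted p = 0.083) or 4 (0.052), or *Myc* KO 2 (0.076), 3 (0.051) or 4 (0.077). *Mat2a* lost it on leaving out any 1 of 9 kidneys, with edgeR adjusted p-values of 0.055, 0.12, 0.081 and 0.071 without *Myc* control 1, 2, 4 and 5, and 0.061, 0.11, 0.13, 0.10 and 0.087 without *Myc* KO 1 to 5. *Mtap* also lost the call with count column 3 (edgeR adjusted p = 0.05) and among kidneys with at least 5% unmapped reads (0.056). So did *Mat2a*, at 0.0615 and 0.065, and it lost the call without the filter on low counts as well (edgeR adjusted p = 0.051).

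Of the 10 genes tested in that list, 9 had negative log2 fold changes in the *Myc* cohort, with a median of -0.25. The exception, *Mtr*, had a log2 fold change of 0.27 (edgeR adjusted p = 0.16). All KO kidneys lay above all controls for *Mtr*, as in 2.05% of genes. The salvage enzymes that follow Mtap were looked at after their values had been seen. *Mri1* (log2 fold change -0.53, edgeR adjusted p = 0.068), *Enoph1* (-0.33, 0.12), *Adi1* (-0.35, 0.19) and *Apip* (-0.17, 0.38) did not pass, and *Mri1* passed under 6 of 22 alternatives, DESeq2 among them (adjusted p = 0.0095). In the *Cxcl12* cohort the list's median was -0.032 and *Apip* had the smallest p, with a log2 fold change of -0.13 (edgeR adjusted p = 0.70).

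Spermidine is also the donor for hypusine, the modified lysine of the translation factor Eif5a. All 4 hypusination genes could be tested, 0 passed, and *Eif5a* itself came nearest in the *Myc* cohort with a log2 fold change of -0.44 (edgeR adjusted p = 0.078, and under 0.05 in 5 of 22 alternatives, for example 0.0089 by DESeq2). In the *Cxcl12* cohort *Eif5a2* had the smallest p of the list, with 0.32 (edgeR adjusted p = 0.42).

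In the supply of arginine and ornithine 0 of 7 genes tested passed for *Myc* KO and 0 of 6 for *Cxcl12* KO. *Gatm*, which makes guanidinoacetate and ornithine from arginine and glycine, had 118 ± 37.5 CPM in *Myc* KO and 72.7 ± 10.4 CPM in *Myc* control kidneys (SD, n = 5 each), and 63.5 ± 15.5 CPM (n = 5) in *Cxcl12* KO and 108 ± 38.5 CPM (n = 3) in *Cxcl12* control kidneys. The log2 fold changes of *Gatm* were 0.70 (edgeR adjusted p = 0.087, DESeq2 0.012) and -0.77 (edgeR adjusted p = 0.20, DESeq2 0.039). Without *Cxcl12* control 1 the second was -0.46 (edgeR adjusted p = 0.61). The difference of 1.46 between the cohorts had an adjusted p of 0.068 by edgeR and 0.0025 by DESeq2. Proximal tubule markers, whose cells express *Gatm*, had positive log2 fold changes for 8 of 10 genes in the *Myc* cohort and negative ones for 9 of 10 in the *Cxcl12* cohort, and their part in the *Gatm* values was not tested.

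Among polyamine transport genes 0 of 10 passed for *Myc* KO and 0 of 9 for *Cxcl12* KO, and those with the smallest p were *Slc3a2* (log2 fold change -0.23, edgeR adjusted p = 0.21) and *Atp13a3* (0.33, edgeR adjusted p = 0.35). Of 6 paralogs and related enzymes 3 could be tested in each cohort and 0 passed. *Aoc1*, diamine oxidase, had the smallest p in both, with log2 fold changes of -0.62 (edgeR adjusted p = 0.16) and -0.28 (0.76). Without *Myc* control 4 the first was -0.39 (edgeR adjusted p = 0.35), and leaving out 1 kidney took the second from -0.53 without *Cxcl12* control 3 to -0.11 without *Cxcl12* KO 5, with values of -0.13 and -0.14 without *Cxcl12* control 1 and 2 and -0.46 without *Cxcl12* KO 4. *Amd2*, *Oaz3* and *Satl1* had too few reads to test.

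**Figure D4:**
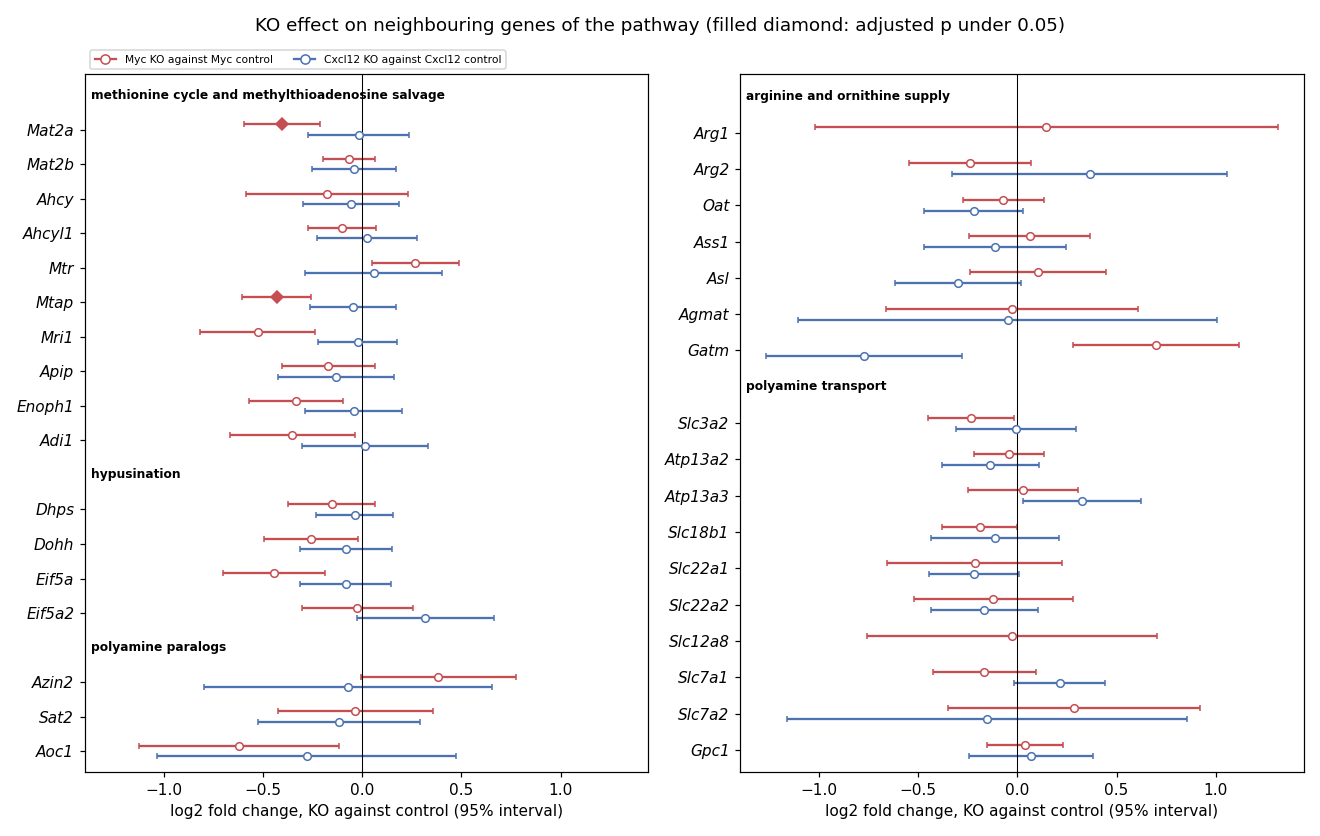
Log2 fold changes, KO against control, with 95% intervals for the genes of the 5 neighbouring lists that could be tested, *Myc* cohort in red and *Cxcl12* cohort in blue. The 2 filled diamonds, *Mat2a* at -0.40 and *Mtap* at -0.43, mark the edgeR adjusted p-values under 0.05.

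Across all 18 kidneys, the genes whose log2 CPM was most like that of *Srm* were *Trp53* (Pearson r 0.97), *Ece2* (0.97) and *C1qbp* (0.96), out of 15903 genes compared. For *Amd1* they were *Ugdh* (0.90), *Psmf1* (0.89) and *Ippk* (0.89). For *Odc1* they were *3110053B16Rik* (0.84), *Nsa2* (0.83) and *Rec8* (0.82), and for *Sms* they were *Nsmce4a* (0.82), *Sdhaf3* (0.81) and *Eid2b* (0.78). *Trp53*, *Ece2* and *C1qbp* were themselves called lower in *Myc* KO kidneys (edgeR adjusted p = 0.014, 0.012 and 0.0043), as were 1.29% of genes tested. They were picked by likeness to *Srm* over all 18 kidneys, the *Myc* KO kidneys included. These calls therefore follow largely from that choice and are no separate support. *3110053B16Rik* and *Rec8* had too few reads to be tested in the *Myc* cohort. The correlations describe likeness over libraries that share their group and depth and carry no test.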

How the data were processed

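RNA of 18 whole kidneys was sequenced. Per gene and kidney, the authors deposited raw, unscaled read counts made with Trimmomatic 0.32 and STAR 2.4.0 on GRCm38 per the labels; STAR counts uniquely mapped reads only. The unstranded column was used, since each strand column held 51.8% to 52.8% of it. Symbols, positions and exon lengths came from GENCODE vM21 on GRCm38, promoters from RefSeq.

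Each cohort was fitted over all genes with edgeR 4.0.16 in R 4.3.3 (filterByExpr, TMM, quasi-likelihood F-test, Benjamini-Hochberg adjustment, threshold 0.05), and the difference between KO effects over all 18 kidneys. Standard errors were the log2 fold change over the square root of F. The fit was tested on simulated data. CPM used TMM factors of all kidneys, and log2 CPM a prior count of 2. P-values set each difference against the spread between these kidneys, each treated as from its own mouse. Levels were tabulated with Python 3.11.15, and shared 50-base stretches were searched in both strands of all transcripts. Alternatives were DESeq2 1.42.0, limma 3.58.1 voom, other scalings, filters, count columns, a replicate block, unmapped share and leaving out each kidney.

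The 10 genes and all lists were chosen with earlier results of these data known. Named are the 10 genes, the targeted genes, listed genes with an adjusted p under 0.05, the smallest p of each list and cohort, and the 3 genes most like each synthesis gene. Other genes named were chosen after their values were seen.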

Additional observations from a re-analysis of the deposited data

Results flagged for a closer look

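The *Myc* KO effect on *Srm* differed from the *Cxcl12* KO effect by -0.8062 on the log2 scale in edgeR's test of the difference (adjusted p = 0.038), and 12 of the 18 fits without 1 kidney did not keep that call. The targeted gene *Myc* differed likewise, by -1.8283, with all 5 *Myc* KO kidneys below and all 5 *Cxcl12* KO kidneys above their control means. *Gatm* lay above the control mean in all 5 *Myc* KO kidneys and below it in all 5 *Cxcl12* KO kidneys, with a difference of 1.4645 between the log2 fold changes (edgeR adjusted p = 0.068). Its KO and control kidneys overlapped in both cohorts, and the *Cxcl12* control mean rests on 3 kidneys. The share of all genes with such opposite sides was not counted.

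In 72 groups of 5 kidneys, 24 genes by 3 groups, 3 values stood far from the rest of their group. Chance gives about 1 in 20 such groups, so the number found is no more than chance would give. *Odc1* had 232.09 CPM in *Myc* KO 1, *Aoc1* had 6.7746 CPM in *Myc* control 4, and *Apip* had 7.4987 CPM in *Myc* KO 3.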

How the results depend on the processing

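The *Srm* call in the *Myc* cohort held in all 22 alternatives, and 1 of the 10 genes was called in each of them. Of 956 refitted log2 fold changes of 43 results, 869 kept direction and side of the threshold, 38 lost the call, 19 gained one and 30 turned direction. The cause of the changes below was not tested.

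In the *Myc* cohort 246 genes were called, against 1139 with DESeq2, 391 with library size alone, 954 with a term for kidneys of under 5% unmapped reads, 8 without those kidneys and 683 with all 18 kidneys in 1 fit, and 21 to 877 on leaving out 1 kidney. In the *Cxcl12* cohort 0 were called, against 355 with DESeq2, 17 with library size alone, 214 without the filter, 9 with count column 3, 123 with the term for unmapped reads, 80 without those kidneys, 25 in 1 fit, and 0 to 15 on leaving out 1 kidney. DESeq2 called 1 of the 10 genes there, *Sat1*, and the fits without 1 kidney called 0 to 0. The difference between the cohorts gave 11 genes, against 314 with DESeq2, 3 with limma voom, 5 with library size alone, 4 and 7 with count columns 3 and 4, 133 with the term, 44 without those kidneys, and 1 to 75 on leaving out 1 kidney. Of the 10 genes, 0 were called for the difference with limma voom, library size alone, count column 3 or without those kidneys, and 0 to 1 on leaving out 1 kidney.

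With a block for the replicate number, 18 genes were called in the *Myc* cohort, 0 in the *Cxcl12* cohort and 1 for the difference, where 0 of the 10 genes remained. *Srm* kept its call in the *Myc* cohort under the block (log2 fold change -0.82, edgeR adjusted p = 0.014), and *Mtap* (0.091) and *Mat2a* (0.096) did not. Deviations from the group means correlated between kidneys of equal number at 0.053 on average for *Myc* (range -0.21 to 0.40) and 0.068 for *Cxcl12* (range -0.032 to 0.13). These values do not settle whether equal numbers mark paired mice. 0 of 5 *Myc* and 2 of 3 *Cxcl12* control kidneys correlated best with the KO kidney of their own number.

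Small log2 fold changes turned direction. In the *Myc* cohort *Oaz1* became -0.019 with count column 4, -0.013 with library size alone and -0.0038 without the kidneys of under 5% unmapped reads, and *Oaz2* -0.010 with library size alone. In the *Cxcl12* cohort *Odc1* became -0.015 with count column 3 and -0.049 with library size alone, *Sms* -0.010 without those kidneys and -0.0035 with the term, *Oaz2* -0.013, -0.030 and -0.024 with library size alone, without those kidneys and with the term, and *Azin1* -0.0010 with count column 4 and -0.029, -0.15 and -0.14 under those same 3. *Apip* became 0.065 with count column 4. On leaving out 1 kidney the log2 fold change ran from -0.068 to 0.11 for *Oaz1* and -0.011 to 0.10 for *Oaz2* in the *Myc* cohort, and from -0.083 to 0.074 for *Odc1*, -0.092 to 0.063 for *Srm*, -0.013 to 0.10 for *Oaz2* and -0.046 to 0.12 for *Azin1* in the *Cxcl12* cohort.

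Within the kidneys of under 5% unmapped reads no *Cxcl12* comparison can be made, as no control is among them. With 13 to 45 reads per kidney, *Paox* is limited by depth, and 3 *Cxcl12* control kidneys limit every comparison of that cohort.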
